A study of Homo sapiens with 3 samples.

Results

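The subject is the group of nuclear genes that encode subunits of respiratory chain complexes I to IV and of ATP synthase (complex V), read in undifferentiated cells of khES3, a line of human embryonic stem cells. Members were chosen by gene symbol: the NDUFA, NDUFB, NDUFC, NDUFS and NDUFV series, SDHA to SDHD, CYC1 and the UQCR genes, COX4 to COX8, and the ATP5 genes. Probe sets that name several genes and 2 pseudogene symbols were left out. In all 77 of 19775 singly named genes qualified, on 151 probe sets, and 73 of them (127 probe sets) were among the 12961 genes that passed a filter on low signal. The 73 comprised 32 genes of complex I, 3 of complex II, 7 of complex III, 14 of complex IV and 17 of complex V. Of the other 4, ATP5MF, COX7B2 and COX8C were below the signal floor on every array, and COX6B2 was above it on the leucine-deprived array alone. Each of these was read on 1 singly named probe set, so a low signal does not show that the gene is silent. The probe sets left out for naming several genes include 12 that name a member.

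Cells were kept for 5 hours in leucine-deprived medium, in lysine-deprived medium or in complete medium, and each condition had 1 Affymetrix array. The 3 arrays come from the same line without genetic change, and a single line limits what they can stand for. With 1 array per condition no p-value was possible and no difference has a replicate check. Signals are the authors' linear MAS5 intensities, and differences are on the log2 scale, so that 1 means 2-fold.

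Complexes I, III and IV pass electrons from NADH and ubiquinol to oxygen and pump protons across the inner mitochondrial membrane, complex II feeds electrons from succinate into ubiquinone without pumping, and complex V uses the proton gradient to make ATP. Apart from complex II, each complex also holds core subunits made from mitochondrial DNA, which were not analysed here. The nuclear-encoded subunits are made in the cytosol, imported and assembled. Human pluripotent stem cells are known to rely strongly on glycolysis while keeping functional respiratory complexes.

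The labels were checked against marker genes before the subunits were read. Of 12 markers of undifferentiated human embryonic stem cells 11 passed the filter, with a summed signal of 249121 in leucine-deprived, 242292 in lysine-deprived and 234818 in complete medium. Single markers of this list moved both ways. Against complete medium 4 of the 11 were lower on the leucine-deprived array (lowest -0.62) and 6 on the lysine-deprived array (lowest -1.45). Of a list of 8 genes used as fibroblast or feeder markers 5 passed, with sums of 25503, 29433 and 27960 in the same order. Its members moved in opposite directions, with COL1A1 at 13187, 18609 and 11552, THY1 at 8348, 7503 and 12734 and COL1A2 at 3590, 2868 and 3312, and COL3A1, LUM and PDGFRB did not pass. Stem cells can also express genes of this list, THY1 among them, so the sums do not measure feeder content. Of 8 early differentiation markers 5 passed, with sums of 633, 931 and 604. All 8 genes of a list of known amino acid deprivation targets, ASNS among them, were higher on both deprived arrays (list medians 2.09 for leucine-deprived and 1.95 for lysine-deprived over complete). In such bulk RNA, fewer cells of a type and less RNA per cell cannot be told apart. The ratio of 3′ to 5′ signal of ACTB, a measure of RNA and labelling quality, was 7.55 in leucine-deprived, 11.2 in lysine-deprived and 5.44 in complete medium, and that of GAPDH was 1.23, 1.25 and 1.08. Both ratios were highest on the lysine-deprived array, where several differences below were also larger; their part in those differences was not tested.

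Respiratory chain subunit genes were among the brightest on these arrays. Of the 73, 67 (91.8%) lay in the brightest 20% of genes (2593 genes) and 39 in the brightest 5% (649 genes), and their median level stood at percentile 95.6 of all genes. Outside the brightest 20% were NDUFS7, SDHA and ATP5F1D, ordinary subunits, and COX4I2, COX6A2 and COX7A1, isoforms used mainly in other tissues. Because bright probe sets vary less than dim ones, the members are set below beside the brightest 20% as well as beside all genes.

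After 5 hours without leucine or without lysine the subunit genes as a group lay slightly below complete medium. For leucine-deprived over complete the median of the 73 was -0.08 (middle 50% of genes from -0.19 to -0.00), against 0.01 for all genes and -0.03 for the brightest 20%. For lysine-deprived over complete it was -0.14 (middle 50% from -0.31 to 0.00), against 0.00 for all genes and -0.04 for the brightest 20%. Below 0 were 56 of 73 members (76.7%) on the leucine-deprived array, against 48.3% of all genes and 55.6% of the brightest 20%. On the lysine-deprived array 54 of 73 (74.0%) were below 0, against 49.5% and 56.1%. Relative to the brightest 20% the shift was -0.05 for leucine-deprived and -0.10 for lysine-deprived. Both comparisons share the complete-medium array.

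Error could be estimated only between probe sets that measure 1 gene, as the SD of their differences, and the spread between cultures is not in it. Over the 15 members with at least 2 probe sets in the bright range this SD was 0.10 in the leucine comparison, 0.25 in the lysine comparison and 0.21 between both deprived arrays. Over all 582 bright genes with several probe sets it was 0.15, 0.26 and 0.24.

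**Figure D1:**
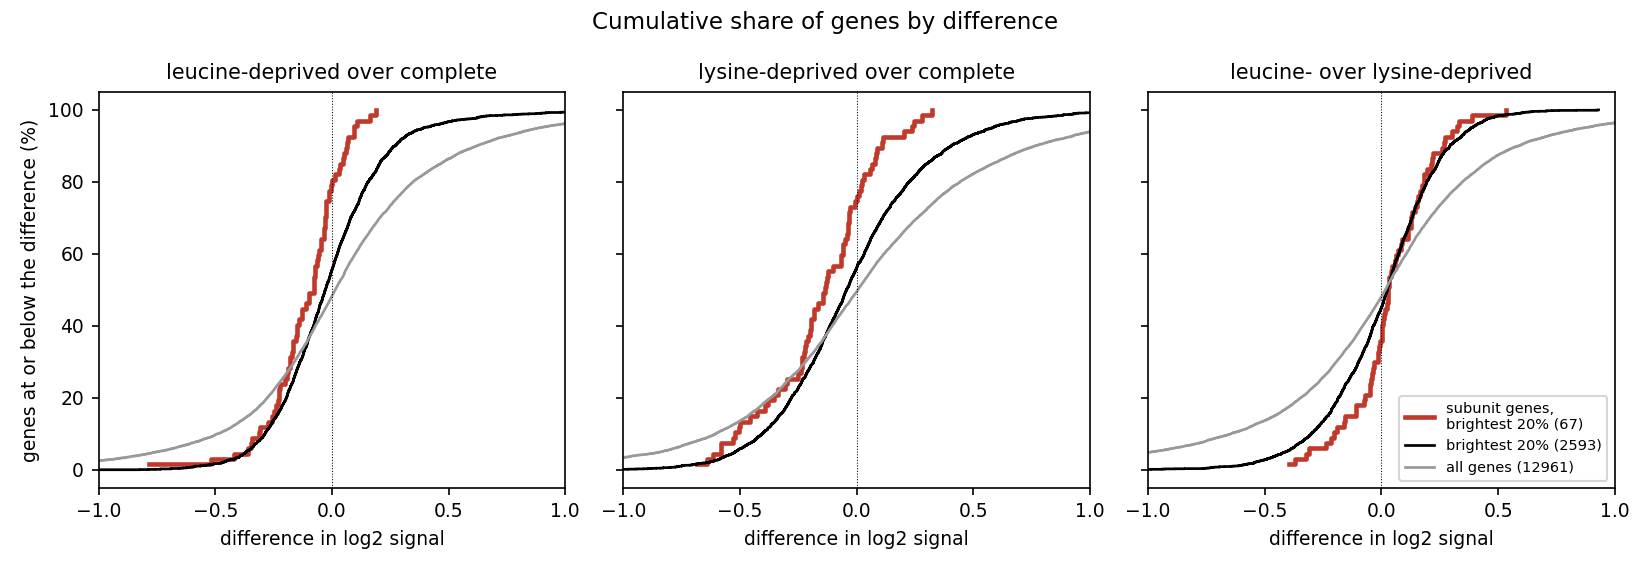
Cumulative share of genes (vertical axis, percent) at or below each difference in log2 signal (horizontal axis) for the 67 subunit genes in the brightest 20% (red), the 2593 genes of the brightest 20% (black) and all 12961 genes (grey). In the first 2 panels the red curve crosses 0 at about the share of bright members below 0 (80.6% and 74.6%), above the black curve at 55.6% and 56.1%, and in the panel of leucine- over lysine-deprived the curves lie close.

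Few members were far from 0. For leucine-deprived over complete 1 of 73 members was at least 2-fold higher and none 2-fold lower, where 4.09% of all genes passed 2-fold in either direction. At 1.5-fold 1 member was higher and 2 lower (4.11%), against 15.3% of all genes, and among the 67 bright members 1 was lower and none higher (1.49%), against 3.47% of the brightest 20% in either direction and 1.0% lower. For lysine-deprived over complete no member above the signal floor on both arrays passed 2-fold (6.17% of all genes did). At 1.5-fold 1 was higher and 3 lower (5.56% of 72), against 21.9% of all genes, and among bright members 3 were lower and none higher (4.48%), against 7.98% in either direction and 3.12% lower. In either direction these shares were below the background. The shares of bright members that were lower rested on 1 and 3 genes and were near their background.

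At the smaller fold of 1.25, chosen after the data were seen, the counts fell on 1 side. Of the 67 bright members 6 were at least 1.25-fold lower on the leucine-deprived array (8.96%, against 7.52% of the brightest 20%) and none was higher (against 7.02%). On the lysine-deprived array 15 were lower (22.4%, against 15.8%) and none was higher (against 14.0%). The share lower on the leucine-deprived array was thus near its background, and the absence of higher members was further from it.

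**Figure D2:**
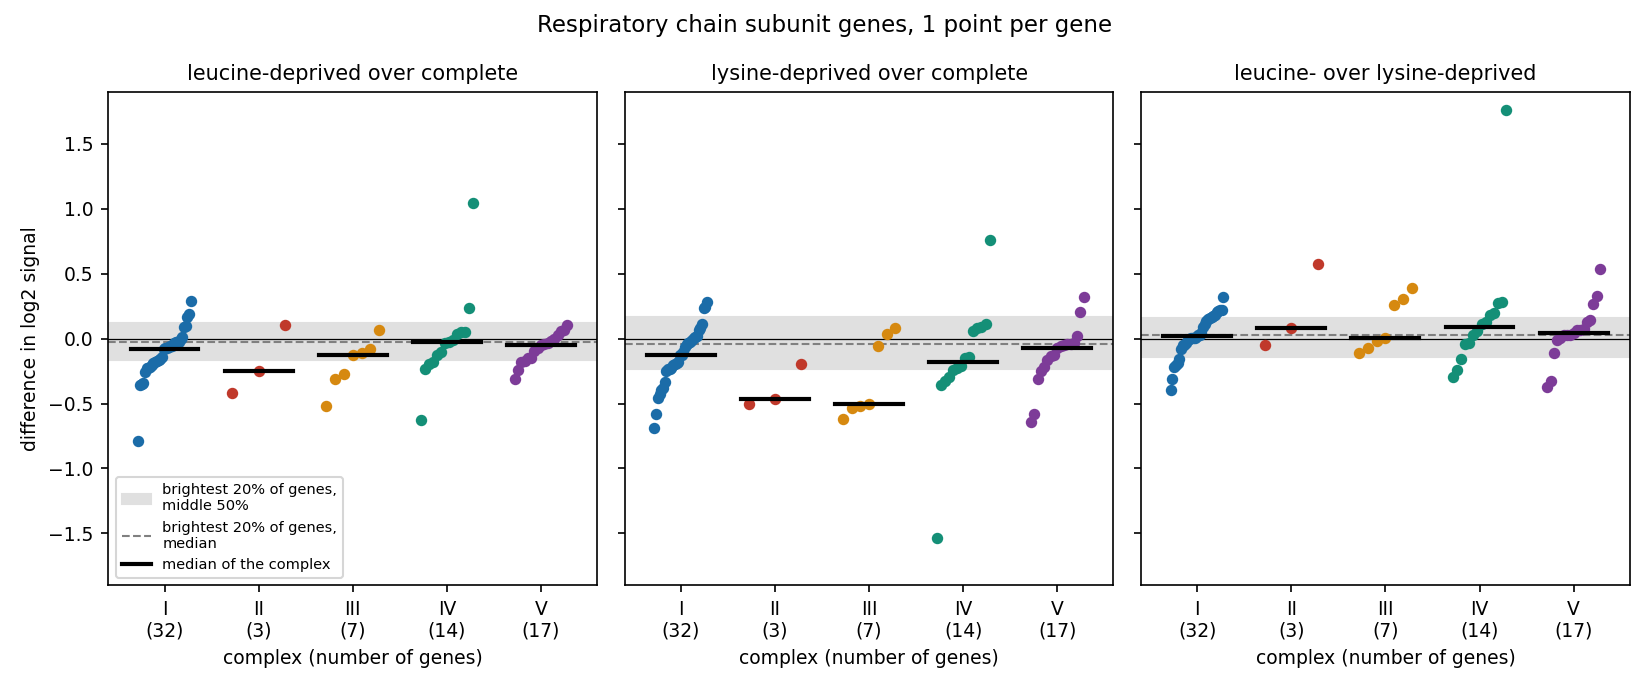
Difference in log2 signal (vertical axis) of each of the 73 subunit genes (points, sorted within a complex) by complex (horizontal axis, number of genes in brackets), with the median of each complex (black bar) and the median and middle 50% of the brightest 20% of genes (dashed line and grey band). Complexes II and III have the lowest medians on the lysine-deprived array (-0.47 and -0.50), of which the first is -0.20 with probe sets averaged, and the points far from the rest in complex IV are COX7A1, COX4I2 and COX6A2.

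Complex I, the NADH dehydrogenase and entry point for most electrons, had a median of -0.08 for leucine-deprived and -0.12 for lysine-deprived over complete. Of its 32 genes 26 and 23 lay below 0. The 5 catalytic core subunits measured (NDUFS1, NDUFS3, NDUFS7, NDUFV1 and NDUFV2) had medians of -0.03 and -0.04, and the 27 accessory subunits, which surround the core and are needed for its assembly and stability, -0.08 and -0.13.

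NDUFA2, an accessory subunit of the matrix arm, had a signal of 5152 in leucine-deprived, 5940 in lysine-deprived and 8884 in complete medium. Both deprived arrays were below the complete-medium array, 1.72-fold for leucine-deprived (-0.79) and less for lysine-deprived (-0.58). It was the lowest member above the floor on the leucine-deprived array and rests on 1 probe set. NDUFA10, an accessory subunit with a fold related to nucleoside kinases, had 3570, 2852 and 4584 in the same order of media. It stood lowest of the members above the floor on the lysine-deprived array, at 1.61-fold lower (-0.68), and 1.28-fold lower on the leucine-deprived array (-0.36). Its other, dimmer probe set gave -0.49 for leucine-deprived and 0.22 for lysine-deprived, so the direction after lysine removal depends on the probe set.

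NDUFA3, a membrane-spanning accessory subunit, had 5367 in leucine-deprived, 4965 in lysine-deprived and 6813 in complete medium (-0.34 and -0.46). NDUFB3, an accessory subunit of the membrane arm, had 3313, 3339 and 4218 (-0.35 and -0.34), and its 2 deprived arrays were nearly equal. NDUFV1, the core subunit that binds NADH and flavin, had 4652, 3986 and 5356 (-0.20 and -0.43). These 3 genes had the complete-medium array highest, and in NDUFV1 the lysine-deprived array stood apart below the other deprived array. NDUFA8, which faces the intermembrane space, had 4390, 3913 and 5135 (-0.23 and -0.39). NDUFB2, of the membrane arm, had 6359, 5715 and 7436 (-0.23 and -0.38), and its next probe set gave -0.17 in both comparisons. In these genes too the complete-medium array had the highest signal.

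A smaller set of complex I genes had the complete-medium array lowest or in the middle. NDUFB7, which lies on the intermembrane side, had 3046 in leucine-deprived, 3147 in lysine-deprived and 2669 in complete medium (0.19 and 0.24). NDUFS7, a core subunit that carries the last iron-sulfur cluster before ubiquinone, had 2441, 2122 and 2002 (0.29 and 0.08). In both genes the complete-medium array was lowest. NDUFS1, the largest core subunit of the matrix arm, had 2566, 3178 and 2616 on its brightest probe set, high on the lysine-deprived array alone (-0.03 and 0.28). Its next probe set gave 0.12 and 0.18, and its 4 kept probe sets ran from -0.48 to 0.58 and from -0.41 to 0.37. NDUFV3, an accessory subunit near the flavin site, had 2703, 3561 and 3007 (-0.15 and 0.24), while its dimmer probe set gave 0.01 and -0.52. NDUFS6, a zinc-binding accessory subunit, had 14886, 13200 and 13286, high on the leucine-deprived array alone (0.16 and -0.01). The positive lysine differences of NDUFB7, NDUFV3 and NDUFS1, 0.24 to 0.28, were close to the SD between probe sets of bright genes (0.26). The negative ones of NDUFB3, NDUFB2, NDUFA8, NDUFV1 and NDUFA3, -0.34 to -0.46, were only moderately larger in size than that SD. No bright member of complex I was 1.25-fold higher. The other 20 genes of the complex ran from -0.26 to 0.10 for leucine-deprived and from -0.25 to 0.11 for lysine-deprived over complete. Among them the complete-medium array was also lowest for NDUFB5 and NDUFC1, and in the middle for NDUFB8, NDUFB10, NDUFB11 and NDUFS4.

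Complex II, succinate dehydrogenase, also works in the citric acid cycle. SDHC, 1 of its 2 membrane anchors, had 4692 in leucine-deprived, 4428 in lysine-deprived and 6277 in complete medium. Both deprived arrays were lower, 1.34-fold (-0.42) and 1.42-fold (-0.50). Its 6 probe sets ran from -0.84 to -0.12 for leucine-deprived over complete, all below 0, and from -0.56 to 0.99 for lysine-deprived over complete. SDHD, the other anchor, had 5102, 5281 and 6056, also highest in complete medium (-0.25 and -0.20). SDHA, the flavoprotein that oxidises succinate, had 2683, 1799 and 2489, so only the lysine-deprived array was lower (0.11 and -0.47). SDHA rests on 1 probe set of a kind that can cross-hybridise, and the brightest and next probe sets of SDHC are of the same kind. The medians of the 3 genes were -0.25 and -0.47. The lysine median was -0.20 with probe sets averaged and -0.16 without shared or cross-hybridising probe sets.

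Complex III, the cytochrome bc1 complex, had medians of -0.13 for leucine-deprived and -0.50 for lysine-deprived over complete, and 6 and 5 of its 7 genes lay below 0. The members split into 2 sets on the lysine-deprived array. UQCRQ, a small ubiquinone-binding subunit, had 10172 in leucine-deprived, 8252 in lysine-deprived and 12644 in complete medium (-0.31 and -0.62). CYC1, cytochrome c1, which hands electrons to cytochrome c, had 4961, 4146 and 5995 (-0.27 and -0.53). UQCRC1, a core protein on the matrix side, had 3432, 2623 and 3708 (-0.11 and -0.50). In these 3 genes the lysine-deprived array was lowest and the leucine-deprived array lay between. UQCR10, a small subunit near cytochrome c1, had 19471, 19431 and 27898, with both deprived arrays equally low (-0.52 and -0.52); its next probe set gave -0.13 and -0.15.

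The other 3 genes of complex III were near 0 on their brightest probe set. UQCRC2, the second core protein, had 8658 in leucine-deprived, 9093 in lysine-deprived and 9470 in complete medium (-0.13 and -0.06), its next probe set gave -0.25 and -0.43, and another, dim one 0.36 and 0.98. UQCR11, a small membrane subunit, had 9432, 10169 and 9943 (-0.08 and 0.03). UQCRB, which contributes to the ubiquinone site, had 21749, 21999 and 20809 (0.06 and 0.08; next probe set -0.24 and -0.05). With a gene's probe sets averaged, the complex III median was -0.27 for leucine-deprived and -0.34 for lysine-deprived. Genes of this complex on 1 probe set, such as UQCRQ, CYC1 and UQCRC1, have no check of that kind.

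**Figure D3:**
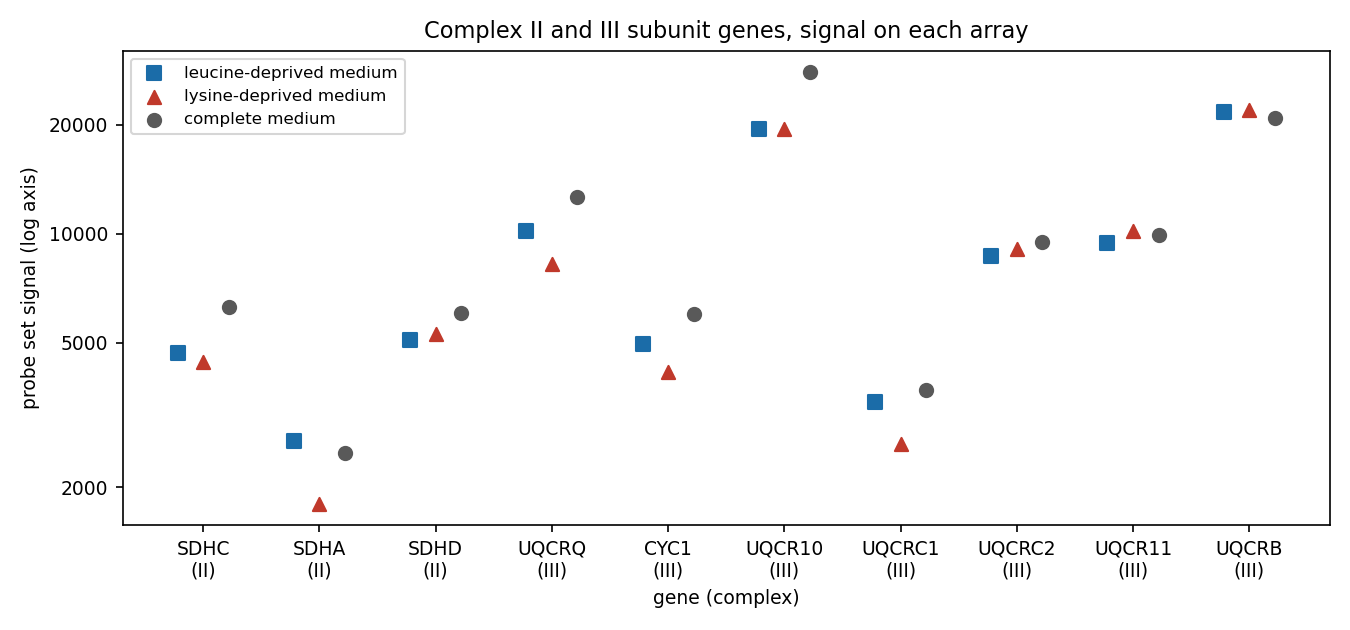
Signal of the brightest probe set (vertical axis, log scale) of the 3 complex II and 7 complex III genes on the leucine-deprived (blue squares), lysine-deprived (red triangles) and complete-medium (grey circles) arrays, 1 point per array and no error bars. The red triangle lies clearly below both other points for SDHA, UQCRQ, CYC1 and UQCRC1, both deprived points lie together below the complete-medium point for UQCR10, and UQCRB has its 3 points between 20809 and 21999.

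Complex IV, cytochrome c oxidase, which passes electrons to oxygen, had medians of -0.03 for leucine-deprived and -0.18 for lysine-deprived over complete, with 9 of 14 genes below 0 in either comparison. COX6B1, which faces the intermembrane space, had 11561 in leucine-deprived, 10594 in lysine-deprived and 13564 in complete medium (-0.23 and -0.36), and was the lowest bright gene of the complex on the lysine-deprived array. COX7A2L, a protein of respiratory supercomplexes, had 7088, 5872 and 7214, low on the lysine-deprived array alone (-0.03 and -0.30). COX7C, a small membrane subunit, had 61330, 53571 and 61902, with the same order (-0.01 and -0.21). COX6A1 (31572, 32424 and 30540) and COX6C (31232, 31915 and 30096), also small membrane subunits, differed by 0.09 or less from complete medium, and COX5A, on the matrix side, had 19865, 23452 and 21723 (-0.13 and 0.11). COX5B, COX7B and COX8A lay between -0.19 and 0.04 for leucine-deprived and between -0.24 and -0.14 for lysine-deprived over complete. All of these bright genes lay within 0.36 of complete medium on both deprived arrays.

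A further 3 genes of complex IV are isoforms known from other tissues, and all 3 were dim here. COX7A1, the heart and muscle isoform of subunit 7A, had 269.2 in leucine-deprived, 220.8 in lysine-deprived and 130.7 in complete medium. Both deprived arrays were higher, 2.06-fold (1.04) and 1.69-fold (0.76), and it was the single member past 2-fold on the leucine-deprived array. COX4I2, the lung isoform of subunit 4, had 93.7, 115.2 and 144.5 (-0.63 and -0.33). COX6A2, the heart and muscle isoform of subunit 6A, had 212.0 and 180.4 in leucine-deprived and complete medium and was below the floor on the lysine-deprived array (60.8, floor 62.4), which makes it at least 2.89-fold lower there than in complete medium. At percentiles 23.7, 11.7 and 15.1 of gene level, these 3 genes lie where the SD between probe sets is larger (0.49 in the leucine and 0.57 in the lysine comparison, over 5981 genes of all levels), and each has 1 probe set. Of the ubiquitous partners of these isoforms, COX4I1 had 29212, 26990 and 29860, and COX7A2 22328, 24902 and 23926.

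Complex V, ATP synthase, had medians of -0.05 for leucine-deprived and -0.07 for lysine-deprived over complete, with 13 and 14 of 17 genes below 0. In the F1 head, where ATP is made, ATP5F1B, the catalytic beta subunit, had 16933 in leucine-deprived, 11700 in lysine-deprived and 17515 in complete medium. Only the lysine-deprived array was low (-0.05 and -0.58). ATP5F1A, the alpha subunit, had 48995, 40650 and 45540 (0.11 and -0.16), and ATP5F1E, the epsilon subunit of the stalk, 11852, 14850 and 11888, high on the lysine-deprived array alone (-0.00 and 0.32). The F1 head thus held members at both ends of the lysine comparison, and its median over 5 genes was -0.00 for leucine-deprived and -0.16 for lysine-deprived.

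The c ring, which turns as protons pass, is encoded by ATP5MC1, ATP5MC2 and ATP5MC3, whose mature proteins are the same. ATP5MC1 had 3941 in leucine-deprived, 3130 in lysine-deprived and 4886 in complete medium, lower on both deprived arrays (-0.31 and -0.64, or 1.24- and 1.56-fold). ATP5MC2 (18122, 17725 and 19391) and ATP5MC3 (28256, 28187 and 29149) differed from complete medium by 0.13 or less. In the rest of the membrane part, ATP5MG, subunit g, had 24378, 23218 and 28763, highest in complete medium (-0.24 and -0.31). ATP5ME, subunit e, had 14446, 18673 and 16236, high on the lysine-deprived array (-0.17 and 0.20; next probe set -0.09 and 0.48). The 4 peripheral stalk genes, ATP5PB, ATP5PD, ATP5PF and ATP5PO, had a median of -0.05 in both comparisons. Those 4 with ATP5F1C, ATP5F1D, ATP5MJ and ATP5MK ran from -0.18 to 0.06 for leucine-deprived and from -0.25 to -0.03 for lysine-deprived over complete. ATP5IF1, a peptide that inhibits ATP hydrolysis by the enzyme, had 7740, 7502 and 7384 (0.07 and 0.02).

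The direct comparison of both deprivations does not use the complete-medium array. The median of the 73 members for leucine- over lysine-deprived was 0.03 (middle 50% from -0.04 to 0.17), against 0.02 for all genes and 0.03 for the brightest 20%, and 48 members lay above 0 and 25 below. The share below 0 was 34.2%, against 48.1% of all genes and 45.1% of the brightest 20%. No member above the floor on both arrays passed 2-fold (4.74% of all genes did) or 1.5-fold (17.0% of all genes and 2.43% of the brightest 20%). At 1.25-fold 4 bright members were higher (5.97%, against 8.37%) and 3 lower (4.48%, against 8.72%). The members' median was thus close to that of bright genes, with a smaller share of members below 0. Higher on the leucine-deprived array were ATP5F1B (0.53), UQCRC1 (0.39), ATP5MC1 (0.33) and NDUFA10 (0.32), and lower were NDUFV3 (-0.40), ATP5ME (-0.37) and ATP5F1E (-0.33). The dimmer probe sets of NDUFV3 (0.53) and NDUFA10 (-0.71) pointed the opposite way. SDHA, just outside the bright range, was 0.58 higher, and COX6A2, below the floor on the lysine-deprived array, at least 3.40-fold higher. Of complexes I to V the medians were 0.02, 0.08, 0.00, 0.09 and 0.04, and that of complex II turned to -0.05 with probe sets averaged.

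Several probe sets of 1 gene gave a partial check. Of all 127 member probe sets 93 lay below 0 for leucine-deprived over complete and 87 for lysine-deprived over complete, with medians of -0.09 and -0.14, and of the 89 in the bright range 72 and 67 did. For members at least 1.25-fold lower, the second brightest probe set was read where it was in the bright range. This was below 0 for SDHC on the leucine-deprived array and for SDHC and NDUFB2 on the lysine-deprived array. Both SDHC probe sets compared in this way are of a kind that can cross-hybridise. Another bright probe set of SDHC stood at 0.99 on the lysine-deprived array, so its probe sets disagree there. Of the 73 chosen probe sets 42 carry a mark for shared or cross-hybridising sequence, and near-identical processed copies of these genes elsewhere in the genome could contribute to them. Dim second probe sets of ATP5F1C, ATP5PB, ATP5PD, COX6A1, NDUFA10, NDUFB1, NDUFB4, NDUFC1, NDUFS1 and UQCRC2 differed from others of the same gene by over 1 in at least 1 comparison.

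**Figure D4:**
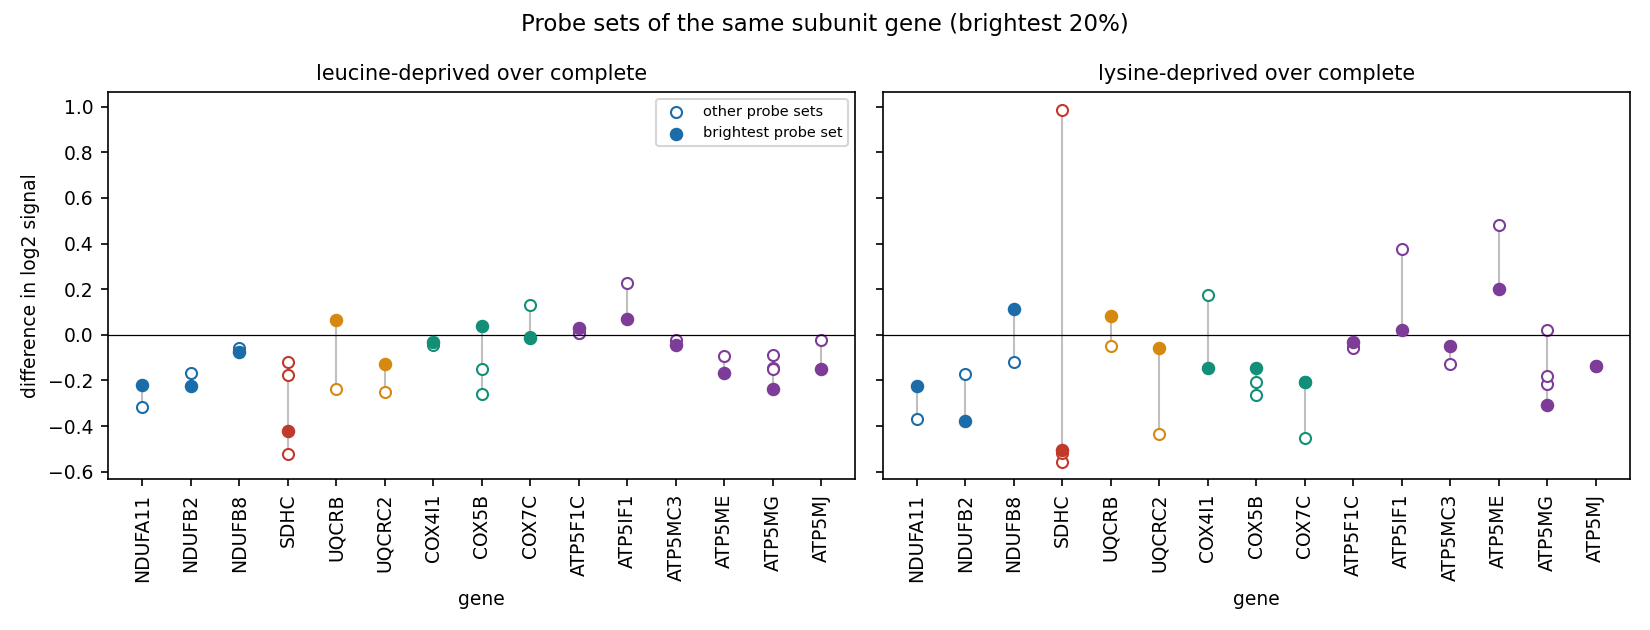
Difference in log2 signal (vertical axis) for every bright probe set of the 15 subunit genes that have at least 2 (horizontal axis), with the brightest probe set filled, the others open and a grey line over their range. Most ranges are short on the leucine-deprived array (SD 0.10), and on the lysine-deprived array 1 probe set of SDHC stands at 0.99 against -0.50 for its brightest.

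Promoter sequences were read to describe the members beyond the rule. RefSeq windows of GRCh38.p14, from 250 bases before to 50 bases after a gene's start, were given for 62 of the 73 members, of 27305 genes in the table. They were searched on both strands for 5 motifs: GCGCATGC, bound by NRF1, a known activator of respiratory genes; CCGGAAG, the ETS core bound by GABP; AAGATGGCG, bound by YY1; TGATGNAA, the composite site of ATF4 and C/EBP factors; and TGACGTCA, the cyclic AMP response element (CRE) bound by CREB and ATF factors. A gene with several windows counts where any of them matches, matches of different motifs may overlap, and a match is a description of letters and not of binding.

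The NRF1 motif was present in 13 of 62 members (21.0%), against 3.68% of all genes and 6.88% of the brightest 20%, and the YY1 motif in 8 (12.9%), against 2.14% and 6.56%. The ETS motif was present in 19 (30.6%), against 12.2% and 26.1%. The ATF4 composite was present in 2, NDUFA5 and NDUFS6 (3.23%), against 4.46% and 3.42%. The largest difference of these genes from complete medium was 0.16, for NDUFS6 on the leucine-deprived array. The CRE was present in 4, NDUFA10, ATP5MC1, NDUFB2 and ATP5ME (6.45%), against 2.25% and 4.42%. The shares of the NRF1 and YY1 motifs thus stood above both backgrounds. Those of the ETS and CRE motifs stood above all genes but near the brightest 20%, and that of the ATF4 composite was near the brightest 20%.

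The 4 windows with a CRE are shown because they include the 2 lowest members of the lysine comparison above the floor. They were thus picked by their lysine values, and those values are no separate evidence for the motif. Of these 2 members, NDUFA10 was low there on its brightest probe set only (dimmer probe set 0.22). The window of NDUFA2, lowest on the leucine-deprived array, holds none of the 5 motifs. Capitals mark the motifs searched, and each window runs 5′ to 3′ on the gene's strand.
NDUFA10 (chr2:240025293-240025592, minus strand): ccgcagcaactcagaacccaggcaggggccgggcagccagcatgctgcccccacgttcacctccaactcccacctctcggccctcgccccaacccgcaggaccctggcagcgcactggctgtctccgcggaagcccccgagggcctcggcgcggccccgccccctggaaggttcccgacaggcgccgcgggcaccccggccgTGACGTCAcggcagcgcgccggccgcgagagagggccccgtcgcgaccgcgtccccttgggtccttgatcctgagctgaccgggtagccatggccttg
ATP5MC1 (chr17:48892537-48892836, plus strand): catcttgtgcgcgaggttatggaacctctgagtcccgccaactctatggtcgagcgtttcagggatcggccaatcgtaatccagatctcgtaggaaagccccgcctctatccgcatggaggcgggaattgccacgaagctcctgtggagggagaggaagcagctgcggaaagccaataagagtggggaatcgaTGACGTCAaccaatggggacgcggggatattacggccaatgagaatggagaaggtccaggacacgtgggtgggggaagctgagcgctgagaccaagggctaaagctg
NDUFB2 (chr7:140696458-140696757, plus strand): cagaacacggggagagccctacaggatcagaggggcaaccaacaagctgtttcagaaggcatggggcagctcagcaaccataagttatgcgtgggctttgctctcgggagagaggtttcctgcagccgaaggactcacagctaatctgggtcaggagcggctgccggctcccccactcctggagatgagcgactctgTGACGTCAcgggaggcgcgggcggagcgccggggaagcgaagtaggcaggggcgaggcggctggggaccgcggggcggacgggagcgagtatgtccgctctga
ATP5ME (chr4:674227-674526, minus strand): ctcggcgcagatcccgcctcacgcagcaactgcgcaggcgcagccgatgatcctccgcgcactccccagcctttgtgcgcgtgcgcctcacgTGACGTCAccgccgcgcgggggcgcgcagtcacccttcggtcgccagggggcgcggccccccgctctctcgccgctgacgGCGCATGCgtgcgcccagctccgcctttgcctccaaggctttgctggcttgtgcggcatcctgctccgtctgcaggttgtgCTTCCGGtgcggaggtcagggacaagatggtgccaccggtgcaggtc

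With the gene's start as 0, the CRE begins at base -48 in NDUFA10, -57 in ATP5MC1, -53 in NDUFB2 and -158 in ATP5ME. The first 3 of these genes lay at -0.68, -0.64 and -0.38 on the lysine-deprived array and ATP5ME at 0.20. The window of ATP5ME also holds an NRF1 motif at -78 and an ETS motif at 3 on the opposite strand. Any link between motif layout and these differences was not tested. The median of the 4 genes with a CRE was -0.51 for lysine-deprived over complete, against -0.14 for members whose window holds no CRE, and -0.27 against -0.08 for leucine-deprived over complete. Among the brightest 20% of genes the 97 with a CRE had a median of -0.02 for lysine-deprived over complete, against -0.05 for those without. The low median of the 4 members was thus not seen over the bright genes with a CRE. Members with an NRF1 motif had a median of -0.04 on the lysine-deprived array, against -0.18 for those without, and -0.10 against -0.08 on the leucine-deprived array. Bright genes with and without it had medians of -0.06 and -0.05 on the lysine-deprived array.

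Of the complex III genes low on the lysine-deprived array, none with a window holds a CRE; the window of UQCR10 holds none of the 5 motifs and is not shown, and those with another motif follow, UQCRQ with an ETS motif at base -54 and UQCRC1 with a YY1 motif at base 23 from the start.
UQCRQ (chr5:132866392-132866691, plus strand): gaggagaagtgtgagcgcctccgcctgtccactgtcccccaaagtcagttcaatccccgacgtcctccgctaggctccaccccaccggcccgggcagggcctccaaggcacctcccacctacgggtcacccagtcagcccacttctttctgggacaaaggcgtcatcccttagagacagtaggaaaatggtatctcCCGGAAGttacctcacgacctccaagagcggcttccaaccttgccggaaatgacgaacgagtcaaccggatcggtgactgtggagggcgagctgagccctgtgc
UQCRC1 (chr3:48609597-48609896, minus strand): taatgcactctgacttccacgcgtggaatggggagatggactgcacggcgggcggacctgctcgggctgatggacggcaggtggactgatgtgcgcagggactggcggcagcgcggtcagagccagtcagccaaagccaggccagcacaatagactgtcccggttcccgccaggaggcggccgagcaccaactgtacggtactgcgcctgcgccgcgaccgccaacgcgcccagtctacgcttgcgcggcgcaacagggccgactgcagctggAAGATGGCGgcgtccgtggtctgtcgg

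Other mitochondrial gene lists give the setting. Of 58 assembly factors 57 passed the filter, with medians of -0.07 for leucine-deprived and -0.07 for lysine-deprived over complete and 37 and 35 below 0. Of 25 import genes 22 passed, with medians of -0.16 and -0.15. The 16 citric acid cycle genes measured had medians of -0.06 and -0.10, and the 17 electron carrier and coenzyme Q genes -0.04 and -0.12. The 19 regulators of respiratory genes and of mitochondrial DNA expression had medians of 0.06 and 0.01. The import machinery was thus as low as the subunits or lower, and the regulators lay at the level of all genes. COXFA4, a complex IV subunit that the symbol rule misses, had 29573, 37484 and 28000 in leucine-deprived, lysine-deprived and complete medium (0.08 and 0.42), and NDUFAB1, the acyl carrier subunit of complex I, lay at 0.02 and -0.15.

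**Figure D5:**
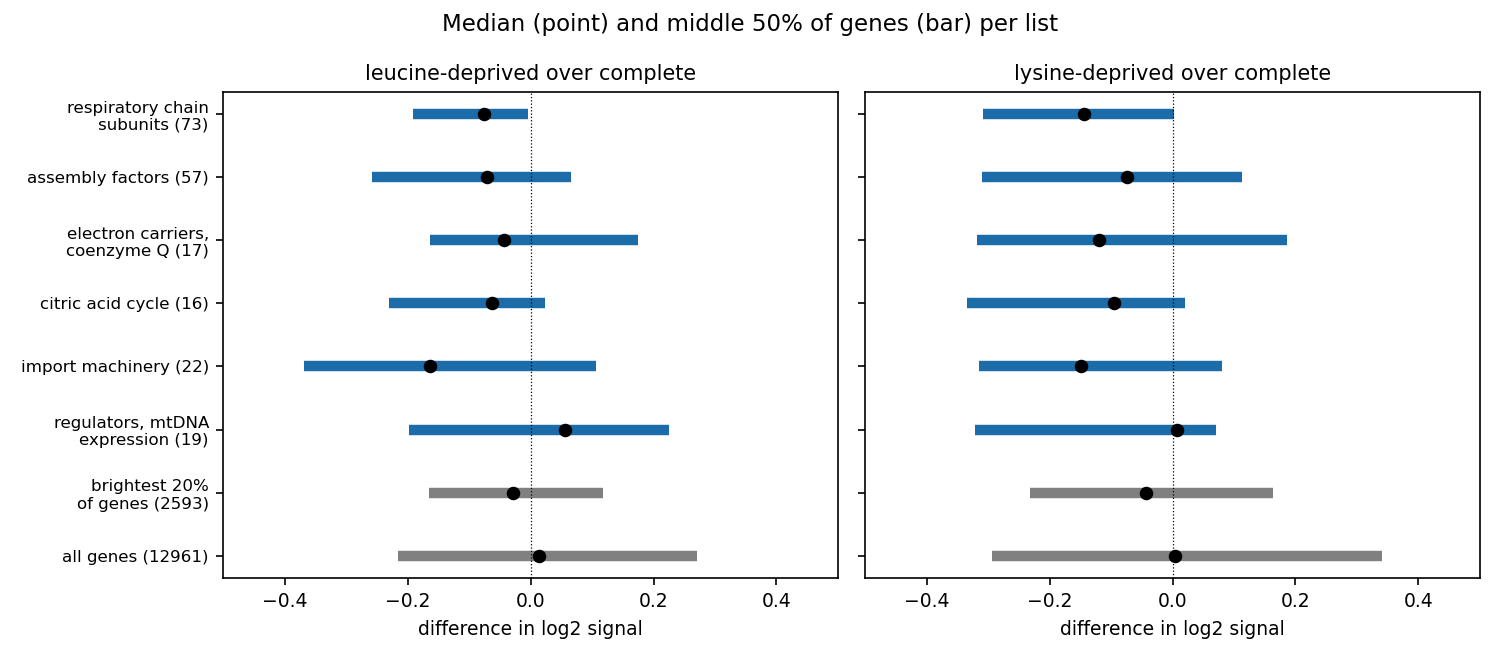
Median difference in log2 signal (point) and middle 50% of genes (bar) for the subunit genes, 5 other mitochondrial gene lists, the brightest 20% of genes and all genes (vertical axis, number of genes in brackets), with both deprivations in separate panels. The subunit bar ends at about 0 in both panels (-0.00 and 0.00), while the bars of the other lists and of the background reach past it.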

How the data were processed

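RNA from khES3 cells in leucine-deprived, lysine-deprived and complete medium was measured on 1 array each, and that number limits the precision. The deposited values are linear signal intensity per probe set, which the authors computed with MAS5 according to the submitters' processing notes; the version is not given in the sources used here. Each array had a trimmed mean of 500.1, so a shift common to most genes is removed. No sample columns were left unused.

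Signals under an array's 40th percentile were raised to it before log2. Probe sets naming 1 gene passed the filter if their 3-array mean reached the median of all, and a gene took its brightest kept probe set. Gene names came from the platform annotation; all 77 Entrez identifiers matched RefSeq. Members and lists were chosen with earlier results of these data known. Genes were named by rule: the 5 highest and 5 lowest members per comparison, the 2 highest and 2 lowest per complex, complex II, tissue isoforms, members past 2-fold and members whose probe sets differ by over 1, with up to 4 genes of each other list; further members, such as NDUFA3, were named after their values were seen. Protein sequences were not used here. The calculations were tested on simulated data. Alternatives were other normalizations, floors, filters, probe set choices and member lists. Python 3.11.15, numpy 2.4.6, pandas 2.3.3, matplotlib 3.10.9, R 4.3.3 and limma 3.58.1 were used.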

Additional observations from a re-analysis of the deposited data

How the results depend on the processing

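The medians of all members moved by less than 0.1 under each of 13 alternatives per comparison: they ran from -0.11 to -0.05 for leucine-deprived over complete and from -0.17 to -0.12 for lysine-deprived over complete, always below 0, and from -0.02 to 0.05 for leucine- over lysine-deprived, above 0 under 12 of 13. Of 195 complex medians 183 also moved by less than 0.1. Averaging the probe sets of each gene gave -0.27 (leucine-deprived) and -0.34 (lysine-deprived) for complex III and -0.20 (lysine-deprived) for complex II, and turned complex II between both deprivations to -0.050. Leaving out shared or cross-hybridising probe sets gave -0.25 for complex III on the leucine-deprived array, -0.16 and -0.33 for complexes II and IV on the lysine-deprived array, and -0.035 for complex II, now reversed, and 0.26 for complex III between both deprivations. Counting every probe set, chosen after seeing the data, gave -0.33 and -0.23 for complexes II and III on the lysine-deprived array, and members in the brightest 20% alone, likewise added, -0.35 for complex II. Counts of members past 1.5- or 2-fold stayed between 0 and 4; the 3 that were 1.5-fold lower on the lysine-deprived array became 2 to 4. On either deprived array the member 1.5-fold higher, COX7A1, became 0 with the floor at the 60th percentile, a filter at the 70th percentile, without tissue isoforms or in the brightest 20%, and the 2 lower on the leucine-deprived array became 1 under these and with log2(value + 32), mostly because dim isoforms drop out by construction. The member 2-fold higher on the leucine-deprived array became 0 under all of these and quantile normalization. Without shared probe sets 1 member was 2-fold lower on the leucine-deprived array and 2 were 1.5-fold higher on the lysine-deprived array. One member was 2-fold lower on the lysine-deprived array with the floor at the 20th percentile, with log2(value + 32) or with mean probe sets. Between both deprivations 1 member was 1.5-fold and 2-fold higher with the lower floor or log2(value + 32); mean probe sets gave 2 higher and 1 lower at 1.5-fold, and leaving out shared probe sets 2 higher and 3 lower at 1.5-fold and 1 higher at 2-fold. The cause of these moves was not tested apart from the dropped isoforms. Of 936 values of single members 904 moved by less than the SD between probe sets of a member, and 32 moved more. That SD was 0.31 in the leucine comparison, 0.41 in the lysine comparison and 0.47 between both deprivations. A reversal was counted only for differences of at least 1.5-fold, which few members reached, and 0 were found. These counts therefore cannot show whether the sign of smaller differences held. No paired analysis was possible because each condition has 1 array. Dim probe sets and the single array per condition limit all of these values.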

Other observations

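The genes below are among the 4 with the largest differences in their lists around the respiratory chain. COQ8B, a kinase-like protein of coenzyme Q synthesis, had a signal of 377.2 in leucine-deprived, 343.6 in lysine-deprived and 90.0 in complete medium, on 1 probe set (2.07 and 1.93 on the log2 scale). COX19, a copper-handling assembly factor of complex IV, had 387.9, 429.4 and 151.5 (1.36 on the log2 scale for leucine-deprived over complete), while its other probe set was below 0 on both deprived arrays (lowest -1.29 and -0.50). TIMM44, which tethers the import motor to the inner membrane translocase, had 1312, 1552 and 769.6 (0.77 and 1.01), and its other probe set gave -0.14 and 0.31. GRPEL1, the nucleotide exchange factor of that motor, had 1704, 1370 and 2334 (-0.45 and -0.77), with both probe sets below 0. CS, citrate synthase, had 6128, 4018 and 3983 and was high on the leucine-deprived array alone (0.62 and 0.01). POLRMT, the mitochondrial RNA polymerase, had 1182, 1237 and 1740, low on both deprived arrays (-0.56 and -0.49).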
